A study of Mus musculus with 4 samples.

Results

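In all, 10 genes of neutrophils were followed on the 4 arrays of the study. They were S100a8, S100a9, Ltf, Camp, Ngp, Lcn2, Cd177, Retnlg, Csf3r and Cxcr2, named as granule, secreted and receptor genes of this cell type. They and the further gene lists below were chosen with earlier results of these data known, so their counts are descriptions and not independent support. The 10 made up 10 of the 22911 gene symbols that the array accessions could be matched to. Each had 1 probe except Lcn2 with 2, so that 11 probes were read. All 11 were well above background and passed all 5 quality flags on all 4 arrays.

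The arrays held RNA of CD8+ T cells and of mesenchymal stroma cells (MSCs), which were sorted from subcutaneous Bcr-Abl+ tumors of Wt mice and of Sipa1-/- mice, with 1 array for each cell type and genotype. All mice were C57BL/6Ncr, 8 weeks old, and all received the same GFP+ Bcr-Abl+ hematopoietic progenitor cells in Matrigel, a model of chronic myeloid leukemia growing under the skin, with tumors taken on day 12. Sipa1 encodes a GTPase-activating protein for Rap1, and its loss is germline in the knockout recipients, so that both sorted cell types carry it. The MSC gate was GFP- CD45- Ter119- CD31- and the CD8 T gate was GFP- TCRb+ CD8+. Neither gate named a neutrophil marker, but neutrophils carry CD45 and lack TCRb, so both gates are set to leave them out. The labels give 5 mice per genotype, and whether RNA of the 5 was pooled is not stated in the sources used here.

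Neutrophils fill their granules in sequence while they mature in the bone marrow. Azurophil proteins such as myeloperoxidase are transcribed first, specific granule proteins such as lactoferrin follow under the control of C/EBP epsilon, and gelatinase granule proteins and surface receptors for chemokines and formyl peptides come last. In tumors neutrophils are drawn in by ligands of CXCR2 and kept alive by G-CSF, and neutrophil-like cells also belong to the disease itself in chronic myeloid leukemia.

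The promoters of 5 of the genes are shown. They are 4 of the 9 genes that were at least 2-fold lower in Sipa1-/- CD8+ T cells below, and Csf3r, which was not. All 5 hold a match to the letters marked here, which is not so for all 9. Whether promoter letters bear on the signals was not tested. All 10 genes matched the RefSeq promoter table of build GRCm38.p6. Each sequence is the 250 bases before the annotated start, 5′ to 3′ on the strand of the gene. Capitals mark matches, on either strand, to TTGCNNAA, a form of the site that C/EBP factors bind, to GAGGAAG, a form of the PU.1 site, or to TATAAA.
S100a8, chr3:90668821-90669070, plus strand: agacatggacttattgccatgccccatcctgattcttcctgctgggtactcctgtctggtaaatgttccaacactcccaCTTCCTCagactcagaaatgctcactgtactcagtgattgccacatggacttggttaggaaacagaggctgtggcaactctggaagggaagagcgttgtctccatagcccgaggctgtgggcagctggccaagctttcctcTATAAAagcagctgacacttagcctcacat
S100a9, chr3:90695722-90695971, minus strand: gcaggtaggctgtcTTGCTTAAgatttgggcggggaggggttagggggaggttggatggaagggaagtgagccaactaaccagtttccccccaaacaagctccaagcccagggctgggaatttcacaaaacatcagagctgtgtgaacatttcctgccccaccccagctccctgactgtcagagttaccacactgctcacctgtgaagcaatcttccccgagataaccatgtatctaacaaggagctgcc
Ltf, chr9:111019042-111019291, plus strand: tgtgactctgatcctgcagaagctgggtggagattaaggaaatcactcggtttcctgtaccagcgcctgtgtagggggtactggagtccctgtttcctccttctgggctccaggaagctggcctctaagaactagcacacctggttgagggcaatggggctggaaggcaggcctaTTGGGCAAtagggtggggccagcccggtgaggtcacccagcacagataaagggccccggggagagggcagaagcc
Ngp, chr9:110419558-110419807, plus strand: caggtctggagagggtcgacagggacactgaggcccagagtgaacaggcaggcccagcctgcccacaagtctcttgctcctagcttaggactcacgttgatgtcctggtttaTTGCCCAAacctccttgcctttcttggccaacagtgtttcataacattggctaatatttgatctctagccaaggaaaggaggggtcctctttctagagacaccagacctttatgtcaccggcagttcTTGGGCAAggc
Csf3r, chr4:126024409-126024658, plus strand: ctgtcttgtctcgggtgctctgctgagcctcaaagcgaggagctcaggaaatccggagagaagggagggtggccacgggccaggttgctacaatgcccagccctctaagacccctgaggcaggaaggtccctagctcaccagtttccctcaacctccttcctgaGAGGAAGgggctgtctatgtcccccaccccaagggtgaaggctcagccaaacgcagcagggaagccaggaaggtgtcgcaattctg

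The C/EBP letters were found in 5 of the 10 promoters (Lcn2, Ltf, Ngp, Retnlg and S100a9) and in 9.56% of all 32851 promoters of the table. Ngp held them at 138 and at 11 bases before the start, Ltf at 75 bases and S100a9 at 236 bases. The PU.1 letters were found in Csf3r, Lcn2 and S100a8 and in 10.6% of all promoters. The TATA letters stood 30 bases before the start of S100a8 and 40 bases before that of Cd177, and 12.4% of all promoters held them. Camp and Cxcr2, which were also at least 2-fold lower in Sipa1-/- CD8+ T cells, held none of these letters in the window. A match is a description of the letters and not a measured binding site. S100a8 and S100a9 are neighbors on chromosome 3, and Ltf, Camp and Ngp all lie on chromosome 9.

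Values below are log2 signal minus the 75th percentile of the array, called the scaled log2 signal, so that 0 is a probe as bright as the 75th percentile. Levels of different genes come from different probes and are not to be compared with each other. Summed signals below are likewise for setting the same list side by side between arrays, not for setting lists against each other. Because every condition rests on 1 array, differences could not be set against replicate spread and no p-value was computed. For probes that the array repeats on 10 spots, the log2 signal had a median SD of 0.0398 to 0.0445. This gives an SD of 0.0630 for a log2 ratio of single spots, and it covers spot noise only, not the spread between mice. Sipa1 itself had a gene-level scaled log2 signal of 4.04 in Wt and 2.62 in Sipa1-/- MSCs, and of 4.42 in Wt and 2.56 in Sipa1-/- CD8+ T cells, so that it was lower on both arrays labeled Sipa1-/-.

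The question of the genotype comparison was what the loss of Sipa1 in the recipient changed in the cells sorted from the tumor. In CD8+ T cells all 10 neutrophil genes were lower on the Sipa1-/- array, 9 of them at least 2-fold, whereas in MSCs none of the 10 moved 2-fold in either direction. The median log2 ratio of Sipa1-/- over Wt was -1.40 in CD8+ T cells and 0.14 in MSCs. Over all genes, 1.4% of 14323 were at least 2-fold lower and 2.66% at least 2-fold higher in CD8+ T cells, with a median of -0.02. In MSCs, 11.3% of 15283 genes were at least 2-fold lower and 19.3% at least 2-fold higher, with a median of 0.04. In sorted bulk RNA, fewer cells of a type and less RNA per cell cannot be told apart, and which cells in the sorts carried these RNAs was not tested.

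**Figure D1:**
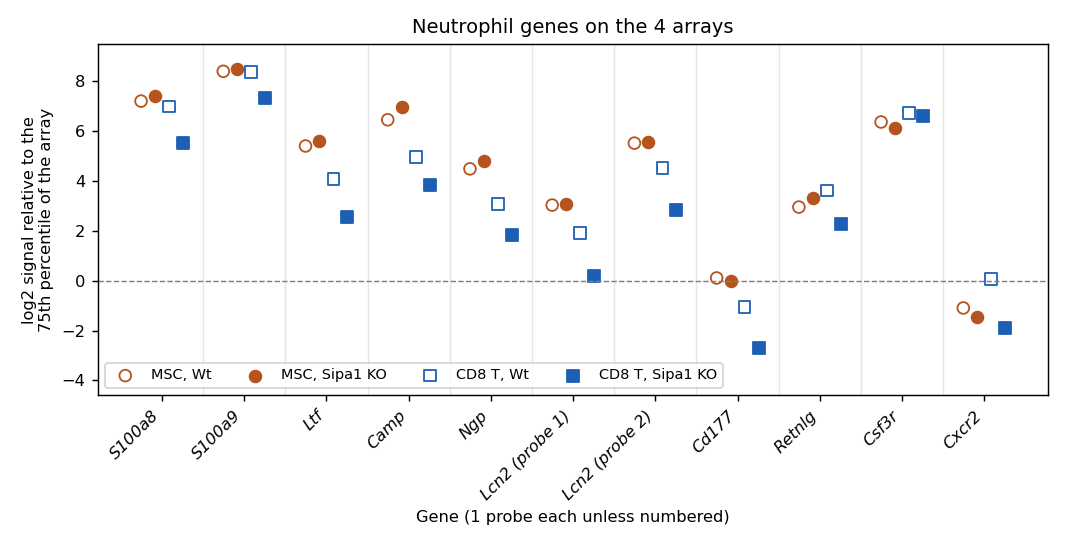
Scaled log2 signal (log2 signal minus the 75th percentile of the array) of the 11 probes for the 10 genes, with 1 point per array: open circles are Wt MSCs, filled circles Sipa1-/- MSCs, open squares Wt CD8+ T cells and filled squares Sipa1-/- CD8+ T cells. The filled square is the lowest of the 4 points for every probe except that of Csf3r, whose 4 points span 0.57.

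The alarmins S100a8 and S100a9 encode the subunits of calprotectin, a calcium- and zinc-binding protein that fills the cytosol of neutrophils and is also made by monocytes. S100a8 had a scaled log2 signal of 7.21 in Wt MSCs, 7.39 in Sipa1-/- MSCs, 6.99 in Wt CD8+ T cells and 5.52 in Sipa1-/- CD8+ T cells. The last array stood alone, 2.79-fold below its Wt partner, while the other 3 lay within a narrow range. S100a9 was at 8.40, 8.50, 8.38 and 7.33 in the same order. It fell by 1.05 on the log2 scale in CD8+ T cells, a 2.07-fold difference and the nearest to the 2-fold line of the 9 genes past it. Between both MSC arrays S100a9 differed by 0.09, and between the Wt MSC and Wt CD8+ T arrays by 0.03, both less than 2 SDs of a spot-level ratio (0.126). The second of these differences was 0.61 under quantile normalization. No S100a9 spot was flagged as saturated, with processed signals between 60801 and 165735.

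The specific granule genes were Ltf, Camp, Ngp and Lcn2, all products of the middle stages of neutrophil maturation. Ltf encodes lactoferrin, which binds iron, and had a scaled log2 signal of 5.41 in Wt MSCs, 5.62 in Sipa1-/- MSCs, 4.07 in Wt CD8+ T cells and 2.57 in Sipa1-/- CD8+ T cells. Both MSC arrays were above both CD8+ T arrays, and the Sipa1-/- CD8+ T array was 2.84-fold below Wt. Camp, the gene of the antimicrobial peptide CRAMP, was at 6.46, 6.97, 4.96 and 3.84 in the same order. Its log2 ratio in MSCs was the highest of the 10 genes, 0.51 or 1.43-fold, beside a log2 ratio of -1.12 in CD8+ T cells. Ngp, neutrophilic granule protein, was at 4.49, 4.81, 3.09 and 1.82, with a 2.42-fold lower signal in Sipa1-/- CD8+ T cells.

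Lcn2 encodes lipocalin 2 (NGAL), which withholds iron from bacteria by binding their siderophores. Its dimmer probe was at 3.04 in Wt MSCs, 3.09 in Sipa1-/- MSCs, 1.92 in Wt CD8+ T cells and 0.20 in Sipa1-/- CD8+ T cells. Its brighter probe was at 5.52, 5.55, 4.54 and 2.83. Both probes gave the same pattern, with log2 ratios of -1.72 and -1.70 in CD8+ T cells and of 0.05 and 0.03 in MSCs. The promoter letters of these 4 genes differed, since Ngp, Ltf and Lcn2 held the C/EBP letters and Camp did not, while all 4 fell at least 2-fold in CD8+ T cells.

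Cd177 encodes a surface glycoprotein held in the specific granules of neutrophils and on their membrane. Its scaled log2 signal was 0.11 in Wt MSCs, -0.03 in Sipa1-/- MSCs, -1.04 in Wt CD8+ T cells and -2.70 in Sipa1-/- CD8+ T cells, a 3.15-fold lower signal in the last than in its Wt partner. Retnlg, resistin-like gamma, is a secreted protein of maturing neutrophils. Its signal was 2.96, 3.30, 3.62 and 2.29, and the Sipa1-/- CD8+ T array was again the lowest, 2.51-fold below Wt. Unlike the granule genes, Retnlg was brighter in Wt CD8+ T cells than in either MSC array.

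The receptors went apart. Csf3r, the receptor for G-CSF, had a scaled log2 signal of 6.37 in Wt MSCs, 6.15 in Sipa1-/- MSCs, 6.72 in Wt CD8+ T cells and 6.61 in Sipa1-/- CD8+ T cells. The CD8+ T pair differed by -0.12, or 1.08-fold, which is less than 2 SDs of a spot-level ratio, and Csf3r was the 1 gene of the 10 that did not fall 2-fold. Its direction in this comparison turned to 0.05 under quantile normalization and 0.02 with the series matrix values. Cxcr2, the chemokine receptor for CXCL1, CXCL2 and CXCL5, was at -1.09, -1.46, 0.06 and -1.88. It had the largest fall of the 10 in CD8+ T cells, 3.82-fold, and its highest level in Wt CD8+ T cells.

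**Figure D2:**
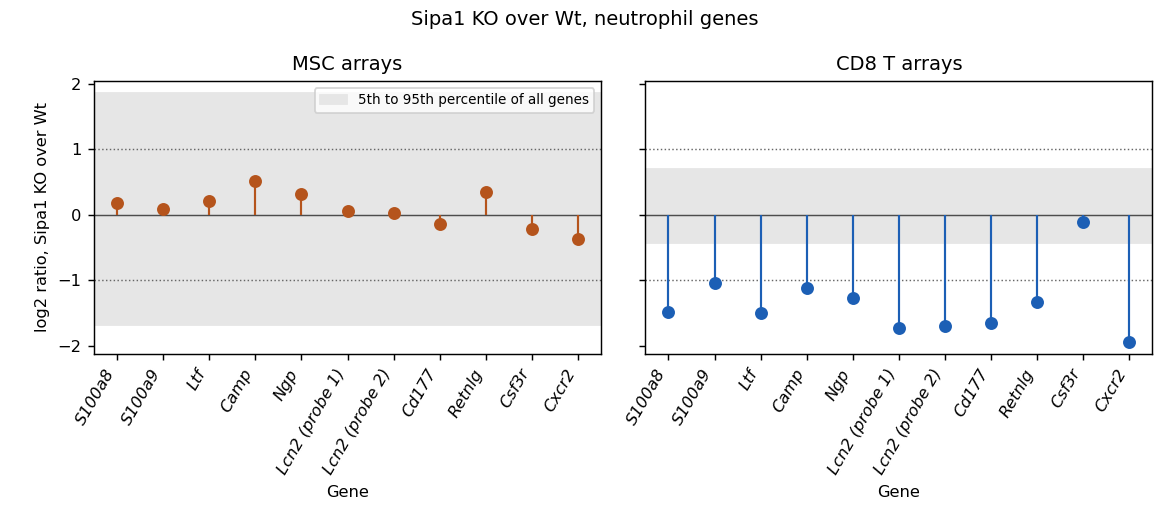
Log2 ratio of Sipa1-/- over Wt for the 11 probes in MSCs (left) and CD8+ T cells (right), with 1 array per group and dotted lines at 2-fold; the gray band holds the 5th to 95th percentile of all genes. In CD8+ T cells the band runs from -0.44 to 0.70 and 10 of the 11 probes lie below -1, whereas in MSCs it runs from -1.68 to 1.85 and every probe lies inside it.

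Markers of other cell types were read on the same arrays. In CD8+ T cells the 7 T cell markers had a median log2 ratio of 0.01 and a summed signal, in units of the 75th percentile, of 459 in Wt and 465 in Sipa1-/- cells. The 6 pan-leukocyte genes summed to 505 and 484. Of 12 monocyte and macrophage markers, 1 was 2-fold lower, Cd14 at -2.43, and the list summed to 222 and 212. Most of both sums came from Ly6c2 alone, at a scaled log2 signal of 7.56 in Wt and 7.53 in Sipa1-/- cells, so they say little of the other markers. The 4 measured of 5 erythroid markers were all at least 2-fold lower, summing to 14.9 in Wt and 6.65 in Sipa1-/- cells. Of 9 B lineage markers, 3 were at least 2-fold lower, Vpreb1 at -2.04, Vpreb3 at -1.82 and Igll1 at -2.21, and the list summed to 28.4 and 20.5. Of 6 measured markers of eosinophils, basophils and mast cells, 1 was at least 2-fold lower, the basophil protease gene Mcpt8 at -2.05. All 8 mesenchymal markers were higher, 7 of them at least 2-fold, with log2 ratios from 1.44 for Pdgfra to 1.74 for Col3a1. The list summed to 206 and 299. Most of both sums came from the remaining gene, Thy1, at a scaled log2 signal of 7.37 in Wt and 7.46 in Sipa1-/- cells. Thy1 had a log2 ratio of 0.09, so the sums understate the shift of the other 7. The part of the erythroid, B lineage, basophil, Cd14 and mesenchymal shifts in the neutrophil values was not tested.

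On the MSC arrays the 9 B lineage markers were all at least 2-fold lower in Sipa1-/- cells, with summed signals of 660 in Wt and 41.0 in Sipa1-/- cells. The pan-leukocyte genes summed to 122 and 48.3, and Ptprc, which encodes CD45, was well above background on both MSC arrays. The monocyte and macrophage markers summed to 114 in Wt and 226 in Sipa1-/- cells, with 5 of 12 at least 2-fold higher. Most of both sums again came from Ly6c2, at a scaled log2 signal of 6.70 in Wt and 7.73 in Sipa1-/- MSCs. The 7 measured mesenchymal markers summed to 942 and 1409. Pdgfra, the mesenchymal marker not measured there, did not pass the flags on either MSC array but passed on both CD8+ T arrays. The 10 neutrophil genes summed to 751 in Wt and 834 in Sipa1-/- MSCs, and to 645 and 336 in Wt and Sipa1-/- CD8+ T cells. Keratinocytes, which can express S100a8, S100a9 and Lcn2, had markers that summed to 3.26 and 5.11 over 5 measured genes in MSCs and to no more than 11.5 over 4 on either CD8+ T array, with Krt1 not passing the flags on any array. The part of these cell types in the neutrophil values was not tested.

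Other neutrophil genes, also chosen with earlier results of these data known, were then grouped by role. Both receptors and cytoplasmic genes stood near the 10 genes in both cell types. Of 15 measured genes for other neutrophil receptors, all 15 were lower in Sipa1-/- CD8+ T cells, 10 of them at least 2-fold, with a median log2 ratio of -1.77, while in MSCs none passed 2-fold and the median was 0.00. Il1r2, the decoy receptor for interleukin 1, had a scaled log2 signal of 2.18 in Wt MSCs, 3.02 in Sipa1-/- MSCs, 2.10 in Wt CD8+ T cells and -0.22 in Sipa1-/- CD8+ T cells, the last 5.00-fold below its Wt partner. Clec4d, a lectin receptor of myeloid cells, was at 0.48, 0.35, 2.61 and 0.63. Fpr2, a formyl peptide receptor, was at 1.88, 1.88, 2.35 and 0.42. These receptors were level between the MSC arrays or nearly so, apart from Il1r2, and dropped on the Sipa1-/- CD8+ T array.

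Cytoplasmic and other genes of neutrophils were lower in 11 of 11 in CD8+ T cells, 10 of them at least 2-fold with a median of -1.51, against a median of 0.14 in MSCs with 1 of 11 at least 2-fold higher. Wfdc21 was at a scaled log2 signal of 3.53 in Wt MSCs, 3.67 in Sipa1-/- MSCs, 3.06 in Wt CD8+ T cells and 0.83 in Sipa1-/- CD8+ T cells. The stefin A genes Stfa2 and Stfa2l1, which encode cysteine protease inhibitors, had log2 ratios of -2.10 and -2.33 in CD8+ T cells and of 0.04 and -0.21 in MSCs. They have near-identical copies, so the values are uncertain between copies. Anxa1, annexin A1, was the 1 gene of the list that did not fall 2-fold in CD8+ T cells, at -0.75, and it is expressed in many cell types.

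The remaining specific and gelatinase granule genes were less uniform. Of 7 measured, 4 were lower and 1 was higher by at least 2-fold in Sipa1-/- CD8+ T cells (median -1.13), and none passed 2-fold in MSCs, where the median was 0.38. Chil3, a chitinase-like protein also made by macrophages, was at 5.02 in Wt MSCs, 5.44 in Sipa1-/- MSCs, 3.77 in Wt CD8+ T cells and 2.64 in Sipa1-/- CD8+ T cells. Hp, haptoglobin, was at 4.75, 4.70, 3.88 and 2.05. Mmp8, neutrophil collagenase, was at 1.27, 1.51, 1.68 and 0.18. All 3 were lowest on the Sipa1-/- CD8+ T array, as Ltf and Camp were. Adam8, a surface protease found beyond neutrophils, had a log2 ratio of 0.53 for the MSC pair and 0.17 for the CD8+ T pair.

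Azurophil granule genes, which are transcribed before the specific granule genes, gave another pattern. All 5 measured were higher in Sipa1-/- MSCs, 4 of them at least 2-fold, with a median log2 ratio of 1.44, and none of 4 passed 2-fold in CD8+ T cells, where the median was -0.40. Mpo, myeloperoxidase, was at a scaled log2 signal of 1.12 in Wt MSCs, 3.26 in Sipa1-/- MSCs, 1.55 in Wt CD8+ T cells and 1.71 in Sipa1-/- CD8+ T cells, 4.39-fold higher in Sipa1-/- than in Wt MSCs. Elane, neutrophil elastase, was at -0.40, 1.17, -0.27 and -0.23. Ctsg, cathepsin G, rose by 1.44 on the log2 scale in MSCs and did not pass the flags on the Wt CD8+ T array. Ms4a3, a membrane protein of granulocyte and monocyte progenitors, was at -1.84, -1.02, -2.01 and -2.98, with a log2 ratio of -0.97 in CD8+ T cells. The 4 genes measured in CD8+ T cells were split there, with Mpo at 0.16 and Elane at 0.04, and with Ms4a3 and Prtn3, the proteinase 3 gene at -0.85 that was added after its value was seen, both lower. Beside this, 19.3% of all genes were at least 2-fold higher in Sipa1-/- MSCs.

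**Figure D3:**
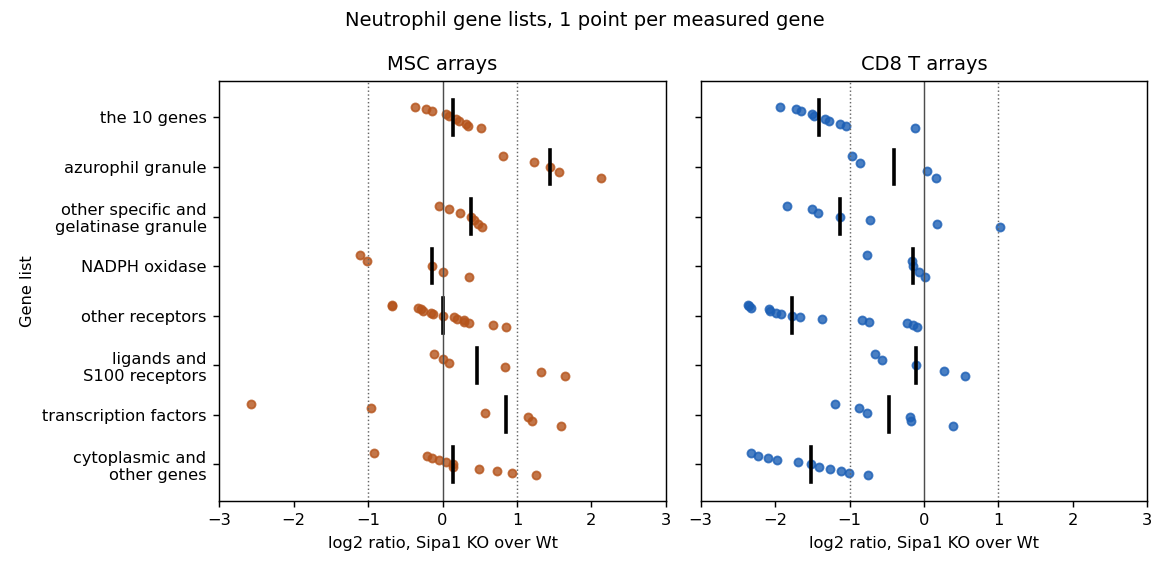
Log2 ratio of Sipa1-/- over Wt for each measured gene of the 10 neutrophil genes and of 7 further lists, in MSCs (left) and CD8+ T cells (right), with black bars at list medians and dotted lines at 2-fold. In CD8+ T cells the medians of the 10 genes (-1.40), other receptors (-1.77), cytoplasmic genes (-1.51) and other specific and gelatinase granule genes (-1.13) lie past the line, whereas in MSCs the azurophil list (1.44) alone does.

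Ligands and S100 receptors were read as 1 further list and granulocyte transcription factors as another. Of the CXCR2 ligands, Cxcl1 was at a scaled log2 signal of 3.86 in Wt MSCs, 5.50 in Sipa1-/- MSCs, 0.02 in Wt CD8+ T cells and -0.64 in Sipa1-/- CD8+ T cells, and Cxcl5 was at 1.25, 2.57, -3.67 and -3.12. Both were at least 2-fold higher in Sipa1-/- MSCs, with log2 ratios of 1.64 and 1.32, and both were far brighter in MSCs than in CD8+ T cells. Among the other ligands, Cxcl3 and Ppbp, both dim, had log2 ratios of 0.09 and 0.0003 in MSCs. Cxcl3 stood at -5.74 in Wt and -5.65 in Sipa1-/- MSCs. The lowest signals well above background on these arrays were -5.86 and -5.79, so its ratio says little. Cxcl2 did not pass the flags on either MSC array, so whether it shared the rise could not be read. Csf3, which encodes G-CSF, did not pass the flags on any array. Tlr4 and Ager, receptors for S100A8 and S100A9, had log2 ratios of 0.84 and -0.11 in MSCs and of -0.56 and -0.11 in CD8+ T cells, with the 5 Ager probes in MSCs spread from -1.06 to 0.41. Over the list, 2 of 6 measured genes were at least 2-fold higher in MSCs (median 0.46), where 19.3% of all genes were. None of 5 passed 2-fold in CD8+ T cells (median -0.11).

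Of the 6 granulocyte transcription factors, 3 rose and 1 fell at least 2-fold in Sipa1-/- MSCs (median 0.86), and 1 was at least 2-fold lower in Sipa1-/- CD8+ T cells (median -0.47). Cebpe, the factor of specific granule genes, was at 2.09 in Wt MSCs, 2.66 in Sipa1-/- MSCs, 0.56 in Wt CD8+ T cells and -0.31 in Sipa1-/- CD8+ T cells. Its order over the 4 arrays was that of Ltf, Camp and Ngp. Cebpd, Cxcl1, Chil3, Anxa1 and Wfdc21 had the same order, so it was not particular to Cebpe. A link of Cebpe to these genes was not tested. Cebpb was at 2.56, 3.76, 3.17 and 1.97, and Cebpd at 4.31, 5.46, 1.79 and 1.03. Both factors also act outside neutrophils. Gfi1, a repressor used by granulocyte and lymphoid progenitors, fell by 2.58 on the log2 scale in MSCs beside the fall of the B lineage markers. That value rests on the 1 of its 2 probes that passed the flags on all 4 arrays. The same probe was at 1.98 in Wt and 2.25 in Sipa1-/- CD8+ T cells. The gene-level log2 ratio of Gfi1 in CD8+ T cells, -0.18, is a mean over 2 probes and has the other direction. The 5 NADPH oxidase genes, which serve the respiratory burst and are shared with other leukocytes, had medians of -0.14 in MSCs and of -0.15 in CD8+ T cells, and none passed 2-fold in CD8+ T cells. Among them Cyba was at 4.11, 4.12, 5.39 and 5.41, Cybb had log2 ratios of -0.14 in the MSC pair and -0.16 in the CD8+ T pair, and Ncf4 had log2 ratios of -1.01 and -0.15.

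The second comparison set the sorted cell types side by side within a genotype. It shares its 4 arrays with the comparison of genotypes, so its values are not independent of those above. In Wt mice, 5 of the 10 genes were at least 2-fold higher in MSCs than in CD8+ T cells and 1 was at least 2-fold lower, with a median log2 ratio of 0.63. Over all genes, 17.3% of 14210 were higher and 12.8% lower by that margin, with a median of -0.06. In Sipa1-/- mice, 8 of the 10 were at least 2-fold higher in MSCs and none lower, with a median of 2.27, and the 8 became 6 under median scaling and 7 under normexp. There, 21.9% of 14279 genes were higher and 18.6% lower by that margin, with a median of -0.18.

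By role, the 4 specific granule genes were higher in MSCs than in CD8+ T cells in both genotypes. In Wt mice their log2 ratios of MSCs over CD8+ T cells ran from 1.05 for Lcn2 to 1.49 for Camp, and in Sipa1-/- mice from 2.80 to 3.13, which is 8.75-fold for Camp. Cd177 followed them, at 1.16 and 2.67. The alarmins were nearly level in Wt mice, at 0.22 for S100a8 and 0.03 for S100a9, and higher in MSCs of Sipa1-/- mice, at 1.88 and 1.17. Retnlg was 1.58-fold lower in MSCs in Wt mice and 2.02-fold higher in MSCs in Sipa1-/- mice, where its log2 ratio of 1.01 was 0.79 under median scaling and 0.99 under normexp. Cxcr2 was 2.22-fold lower in MSCs of Wt mice and had a log2 ratio of 0.42 in Sipa1-/- mice. Csf3r had log2 ratios of -0.35 and -0.46, which turned to 0.27 and 0.29 under quantile normalization and to 0.10 and 0.07 with the series matrix values. S100a8 and S100a9 in Wt mice turned to -0.02 and -0.20 when arrays were scaled by their median. They were 0.91 and 0.61 under quantile normalization, and 0.67 and 0.48 with the series matrix values, so their being level depended on the scaling.

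**Figure D4:**
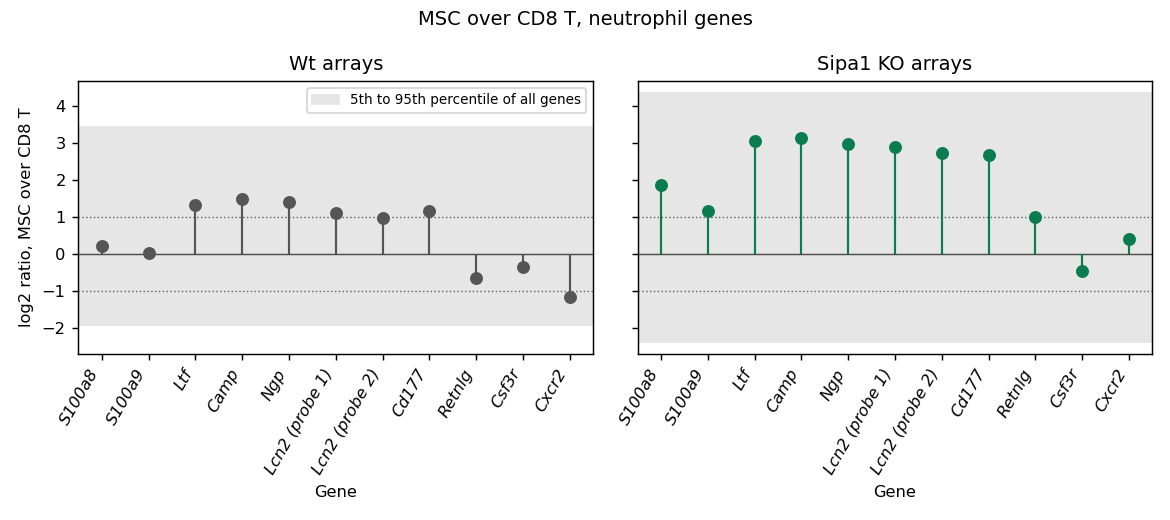
Log2 ratio of MSCs over CD8+ T cells for the 11 probes in Wt (left) and Sipa1-/- mice (right), with 1 array per group, dotted lines at 2-fold and a gray band for the 5th to 95th percentile of all genes. All probes lie inside the band in both panels; the specific granule genes and Cd177 are the highest, and Cxcr2 is the lowest at -1.15 in Wt mice.

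The other receptors and the cytoplasmic genes had negative medians for MSCs over CD8+ T cells in Wt mice and positive ones in Sipa1-/- mice. Of the 15 other receptors, 7 were lower and none higher by 2-fold in Wt mice (median log2 ratio -0.79), among them Clec4d at -2.13, whereas 6 were higher and 2 lower in Sipa1-/- mice (median 0.54). Of the 11 cytoplasmic genes, 4 were lower by 2-fold in Wt mice, among them Stfa2l1 at -2.06, and 1 was higher, Anxa1 at 1.84 (median -0.90), whereas 6 were higher and none lower in Sipa1-/- mice (median 1.15). In Wt mice Chil3 was higher in MSCs, at 1.25, and so was Cebpe, at 1.53. Other cell types differed too in this comparison. The 12 monocyte and macrophage markers were all lower in Wt MSCs, with a median of -2.03, whereas the 4 measured erythroid markers had a median of 5.81 in Wt and 7.30 in Sipa1-/- mice, and the 9 B lineage markers of 4.33 in Wt and 0.09 in Sipa1-/- mice. The pan-leukocyte genes had medians of -2.36 and -3.74. The part of these cell types in the neutrophil values was not tested.

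The 10 genes varied among themselves in how closely they kept to a common profile. Centered on its own mean, the average of the 10 stood at 0.53 in Wt MSCs, 0.63 in Sipa1-/- MSCs, 0.08 in Wt CD8+ T cells and -1.24 in Sipa1-/- CD8+ T cells. S100a8 lay nearest to that average, with a root mean square distance of 0.0856 over the 4 arrays, and Cxcr2 (0.810) and Csf3r (0.897) lay farthest. Among 13733 other genes measured on all 4 arrays, the nearest by the same measure were Alox5 (0.0730), which encodes the lipoxygenase that starts leukotriene synthesis, Pram1 (0.0996), an adaptor protein of myeloid cells, Scrg1 (0.126), Padi4 (0.138), the enzyme that citrullinates histones in neutrophils, and Trem3 (0.142), a myeloid receptor. Alox5 had a scaled log2 signal of 0.41 in both Wt and Sipa1-/- MSCs, -0.03 in Wt CD8+ T cells and -1.53 in Sipa1-/- CD8+ T cells. With 4 arrays such a likeness is a description.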

How the data were processed

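RNA of 4 samples was labeled with Cy3 and hybridized in a single color to Agilent mouse arrays of 62976 spots, of which 59305 were not controls. The deposited intensity values are processed signals that the authors' Feature Extraction software had corrected for background, version 12.0.3.1 in the file headers and 9.1 in the labels. The series matrix holds the same intensity values multiplied by 1 constant per array, and its rule is not given in the sources used here. Of the spots on each array, 60.3% to 65.3% were well above background and 0 were saturated, and all 4 arrays shared 1 slide and 1 scan time.

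From the log2 of each intensity the array's 75th percentile over spots that are not controls was subtracted. Probes were kept with the 5 flags of the methods (saturation, non-uniform spot, non-uniform background, positive and significant, well above background) passing on both arrays compared. Means were taken over the spots of each probe, then over each gene's probes. Accessions were matched to RefSeq symbols of assembly GRCm38.p6, which named 57.6% of spots. Accessions with several symbols were left unnamed, and the array design names another build, so the only coordinates given are those of the RefSeq promoter windows. A log2 ratio of 1 was the limit for counts. With 1 array per condition the values are descriptions, whose precision is limited by the number of arrays.

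The 10 genes, the 7 supporting lists and the 9 marker lists were chosen with earlier results of these data known. From each supporting list up to 4 genes with the highest signal were named, together with the 5 genes nearest to the mean profile of the 10. A few named list genes are not reported here. No probe matched Olfm4, Ly6g or BC100530. Alternatives were flags on 1 array, no flags, median scaling, the percentile over probes above background on all arrays, quantile normalization, the series matrix, normexp (offset 50, from median spot signals), the brightest probe of each gene, and only genes above the median signal. Python 3.11.15, numpy 2.4.6, pandas 2.3.3, R 4.3.3 and limma 3.58.1 were used.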

Additional observations from a re-analysis of the deposited data

Results flagged for a closer look

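The 10 neutrophil genes, the genes named from the supporting lists by their signal and the list medians were searched for opposite signs of the log2 ratio of Sipa1-/- over Wt, both beyond 2 SDs of a spot-level ratio (0.126). In 16 genes and 5 medians it was positive in MSCs and negative in CD8+ T cells by that margin, and the other genes of the lists were not searched. With 1 array per condition this contrast of cell types was not tested. The margin was small beside the spread of all genes, whose 5th to 95th percentile ran from -1.68 to 1.85 in MSCs. What share of all genes was positive in MSCs and negative in CD8+ T cells by that margin was not counted. The counts given here therefore have no background beside them. Of the 10 neutrophil genes, 5 did so, since the positive MSC ratios of S100a9 (0.09) and Lcn2 (0.04) were within the margin, and their log2 ratio was higher in MSCs than in CD8+ T cells by 1.66 for S100a8, 1.72 for Ltf, 1.63 for Camp, 1.59 for Ngp and 1.67 for Retnlg. The median of the 10 genes differed by 1.54. For other granule genes the difference was 1.78 for Ms4a3, 1.55 for Chil3 and 1.74 for Mmp8, and it was 3.17 for the receptor Il1r2. Cxcl1 differed by 2.30 and Tlr4 by 1.40. Among transcription factors it was 1.90 for Cebpd, 2.39 for Cebpb and 1.44 for Cebpe. Anxa1 differed by 1.69 and Wfdc21 by 2.37. The list medians differed by 1.84 for azurophil granule genes, 1.52 for other specific and gelatinase granule genes, 1.33 for granulocyte transcription factors and 1.65 for cytoplasmic genes. Some positive MSC values depended on the scaling. Under median scaling the MSC ratios of S100a8 (0.05) and Ltf (0.08) were within the margin. The MSC median of the 10 genes went from 0.14 to -0.00059. The MSC median of cytoplasmic genes, 0.136, was only just past the margin.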

How the results depend on the processing

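No paired analysis was possible because a single array stands for each condition. Among 108 values of the 12 summary results under 9 alternatives, 88 stayed within spot noise or within 1.5 times the count and 20 moved. In CD8+ T cells the neutrophil genes other than Csf3r (0.05 under quantile normalization, 0.02 with the series matrix) were lower under all 9, with 9 genes at least 2-fold lower except 8 under quantile normalization (S100a9 at -0.96), 7 with the series matrix (S100a9 at -0.91, Camp at -0.99) and 7 of 8 among genes above the median signal. Its median of -1.40 was -1.55 under median scaling, -1.25 under quantile normalization, -1.27 with the series matrix, -1.29 under normexp and -1.30 over genes brighter than the median. The MSC median of 0.14 was -0.00059 under median scaling, 0.30 under quantile normalization and 0.34 with the series matrix, and S100a9 (-0.05) and Lcn2 (-0.10) turned under median scaling, Cd177 (0.06) with the series matrix and Csf3r (0.07) under quantile normalization. For MSCs over CD8+ T cells in Wt mice the median of 0.63 was 0.40, 1.00 and 1.09 under median scaling, quantile normalization and the series matrix. The 5 genes at least 2-fold higher there became 3 under median scaling, and the 1 lower gene became 0 with the series matrix, normexp and genes above the median signal. In Sipa1-/- mice the 8 higher genes became 6 under median scaling (S100a9 at 0.94, Retnlg at 0.79), 7 under normexp (Retnlg at 0.99) and 7 of 8 above the median signal, and the median of 2.27 was 2.05 under median scaling, 2.52 under quantile normalization, 2.80 with the series matrix, 1.91 under normexp and 2.34 over genes brighter than the median. The scale itself moved the median of all genes by -0.14, -0.15, -0.23 and -0.22 under median scaling and by 0.21, 0.13, 0.45 and 0.53 with the series matrix, over MSC and CD8+ T genotype pairs and then Wt and Sipa1-/- cell type pairs. Of the genes past 2-fold, 63.0%, 65.5%, 57.4% and 54.0% were higher in these comparisons, against 54.0%, 52.5%, 45.5% and 42.9% under median scaling and 74.1%, 76.3%, 76.6% and 76.2% with the series matrix. In CD8+ T cells the 381 higher and 201 lower genes became 108 and 98 under normexp, 681 and 371 with flags on 1 array, 1059 and 633 with no flags, and 66 and 70 among genes above the median signal. In MSCs 2954 and 1734 became 1827 and 1190 under normexp and 1308 and 902 over genes brighter than the median. Between cell types, 2454 and 1820 in Wt mice became 859 and 862 above the median signal, 1081 lower with the series matrix, and 3125 and 2663 in Sipa1-/- mice became 1306 and 1378 above the median signal and 1357 lower with the series matrix. The higher genes of these cell type pairs also became 3897 and 4739 with flags on 1 array and 4185 and 5019 with no flags. The cause was not tested. Single arrays set the limit, since spot noise says nothing of the spread between mice.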
